A study of Mus musculus with 123 samples.

Results

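The 10 genes described here encode enzymes of threonine breakdown, glycine cleavage, serine synthesis and the folate-bound one-carbon pathway: Tdh, Gcat, Gldc, Shmt1, Shmt2, Mthfd2, Mthfd1l, Phgdh, Psat1 and Psph. They were picked by symbol from a table of 29022 genes. All 10 were among the 14053 genes detected well enough to be tested.

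Cells draw one-carbon units for purine, thymidylate and methyl-group synthesis mainly from serine and glycine, which hand a carbon to folate. Serine is built from a glycolytic intermediate by Phgdh, Psat1 and Psph acting in sequence, whereas Tdh and Gcat turn threonine into glycine and acetyl-CoA in mitochondria. Mouse embryonic stem cells are known for high Tdh activity and for their dependence on threonine.

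The study sequenced polyadenylated RNA of single mouse embryos that had lost the transcription factor Oct4, encoded by Pou5f1, or Sox2, to follow how the inner cell mass (ICM) forms. KO embryos of the Oct4 line came from Pou5f1 flox/flox; Zp3-Cre mothers and +/mKO2 fathers, and KO embryos of the Sox2 line from Sox2 flox/flox; Zp3-Cre mothers and +/EGFP fathers, so that both the oocyte's and the embryo's own gene were lost. Zp3-Cre acts in the growing oocyte, and KO embryos were recognised by the fluorescent reporter on the paternal KO allele. Ctrl embryos of the same matings lacked the maternal gene and kept an intact paternal allele. MWT embryos had mothers whose gene was intact. The strain label of every embryo was B6C3F1.

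Morulae were taken whole at E2.75. Embryos for ICMs were kept from E2.5 in medium with 1 µM PD0325901, which inhibits the kinase MEK, and their ICMs were isolated by immunosurgery at E3.75 (early) or E4.5 (late). A step from morula to ICM is therefore also a change of culture and of isolation. There were 8 Ctrl and 8 KO embryos per line at each of the 3 stages. MWT embryos numbered 7 morulae, 5 early ICMs and 8 late ICMs in the Oct4 line and 7 early ICMs in the Sox2 line. The Oct4 line gave 68 embryos and the Sox2 line 55, in 16 groups. The stage of the Oct4 MWT ICMs follows the sample titles, which the source names contradict, and the labels of the early ones carry no inhibitor treatment.

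Molecules were counted by unique molecular identifiers (UMIs), and an embryo yielded 525755 to 1344035 of them. Levels are given as CPM, the UMIs of a gene scaled to a library of 1000000 UMIs. Library totals were first multiplied by their TMM scaling factors. A level of 1 CPM corresponds to about 1 UMI in an embryo. Reads came mostly from 3′ ends and were not scaled for gene length, so levels are compared between groups and not between genes. Changes were called with edgeR's quasi-likelihood test where the adjusted p was under 0.05 and the change at least 1 on the log2 scale in either direction. Errors of levels are SD and errors of log2 fold changes are SE. Pou5f1 ran from 0 to 4.68 CPM in the Oct4-KO embryos of all stages and from 13.5 to 91.2 CPM in their Ctrl embryos. Sox2 was lower in Sox2-KO embryos at each stage but was still counted in their ICMs, at 7.81 to 38.3 CPM in early ICMs against 71.2 to 189 CPM in Ctrl, and at 8.31 to 32.8 CPM in late ICMs against 93.6 to 278 CPM.

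The promoters of Phgdh, Mthfd2 and Gcat are shown because Phgdh gave the largest rise and Mthfd2, among the genes with a window, the largest fall on loss of Oct4, and because Gcat held the only motif match. The windows cover 250 bases before to 50 bases after the RefSeq start in GRCm38.p6 and are printed 5′ to 3′ on the gene's strand. They lie at chr3:98339920-98340219 (minus strand) for Phgdh, chr6:83317555-83317854 (minus strand) for Mthfd2 and chr15:79030624-79030923 (plus strand) for Gcat. Capitals in Gcat mark the E-box CACGTG, and the other windows hold no match and no capitals.
Phgdh: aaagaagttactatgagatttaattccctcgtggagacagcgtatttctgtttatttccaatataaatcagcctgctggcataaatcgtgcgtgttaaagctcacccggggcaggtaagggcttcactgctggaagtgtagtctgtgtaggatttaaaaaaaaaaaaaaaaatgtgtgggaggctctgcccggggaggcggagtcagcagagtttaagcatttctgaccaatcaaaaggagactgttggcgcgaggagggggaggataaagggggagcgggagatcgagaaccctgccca
Mthfd2: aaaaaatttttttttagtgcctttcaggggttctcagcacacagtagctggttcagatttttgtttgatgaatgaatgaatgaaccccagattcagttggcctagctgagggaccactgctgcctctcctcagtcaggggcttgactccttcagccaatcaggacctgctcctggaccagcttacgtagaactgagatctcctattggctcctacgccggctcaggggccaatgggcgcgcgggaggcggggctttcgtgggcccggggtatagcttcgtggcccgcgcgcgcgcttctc
Gcat: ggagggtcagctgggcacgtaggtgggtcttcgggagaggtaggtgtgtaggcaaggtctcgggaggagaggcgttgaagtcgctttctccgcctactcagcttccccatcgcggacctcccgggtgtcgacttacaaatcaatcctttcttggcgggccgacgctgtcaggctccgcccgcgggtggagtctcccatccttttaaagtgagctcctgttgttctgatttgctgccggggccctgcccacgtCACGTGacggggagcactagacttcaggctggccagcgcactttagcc

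RefSeq windows were found for 9 of the 10 genes, 10 windows in all because Psat1 had a pair of starts. Tdh was not matched. The octamer ATGCAAAT, the core recognised by Oct4, was found on neither strand in any of the 10 windows and in 1.74% of all 32851 windows. The C/EBP-ATF element TGATGNAAN was likewise found in none of the 10 and in 3.95% of all. The E-box CACGTG was found in Gcat alone, starting 2 bases after the start, and in 7.15% of all windows. All 10 windows held more CpG dinucleotides (8 to 30) than the median of all windows, which was 7, and 8 of them had a GC content above the median of 52.7%, within a range of 42.7% for Shmt2 to 66.7% for Psat1. Sequence outside these windows was not searched.

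On loss of Oct4 none of the 10 genes was called in morulae, part of them fell in early ICMs and most of them fell in late ICMs, with Phgdh as the one that rose. In morulae 0 of the 10 were called, where 0.804% of all genes tested were, and 1 of the 10, Mthfd2 (-0.78 ± 0.35, adjusted p = 0.333), had an unadjusted p under 0.05 against 12.1% of all genes. In early ICMs 5 of the 10 were called (Tdh, Shmt2, Mthfd2 and Mthfd1l fell and Phgdh rose), against 10.9% of all genes. In late ICMs 8 of the 10 were called, the same 5 together with Gcat, Psat1 and Psph, which fell, against 18.1% of all genes. For 6 of these 8 (Tdh, Shmt2, Mthfd2, Phgdh, Psat1 and Psph) the levels in the 8 KO and the 8 Ctrl late ICMs did not overlap at all, which held for 5.64% of all genes. The median log2 fold change of the 10 genes was -0.21 in morulae, -0.51 in early ICMs and -1.84 in late ICMs, beside medians of 0.01, 0.01 and -0.01 over all genes tested.

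Loss of Sox2 lowered fewer of them. In Sox2-KO morulae 0 of the 10 genes were called and 0 had an unadjusted p under 0.05, where 0.00712% of all genes were called and 4.4% had such a p. Tdh and Mthfd2 fell in early ICMs, 2 of the 10 against 3.27% of all genes. In late ICMs 3 of the 10 were called, Tdh, Mthfd2 and Psph, all lower in KO, against 6.95% of all genes. Levels of Tdh and Mthfd2 did not overlap between KO and Ctrl late ICMs, which held for 2.12% of all genes. The median log2 fold change of the 10 was 0.06 in morulae, -0.45 in early ICMs and -0.73 in late ICMs. In these single-embryo libraries, fewer cells of a type and less RNA per cell cannot be told apart.

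**Figure D1:**
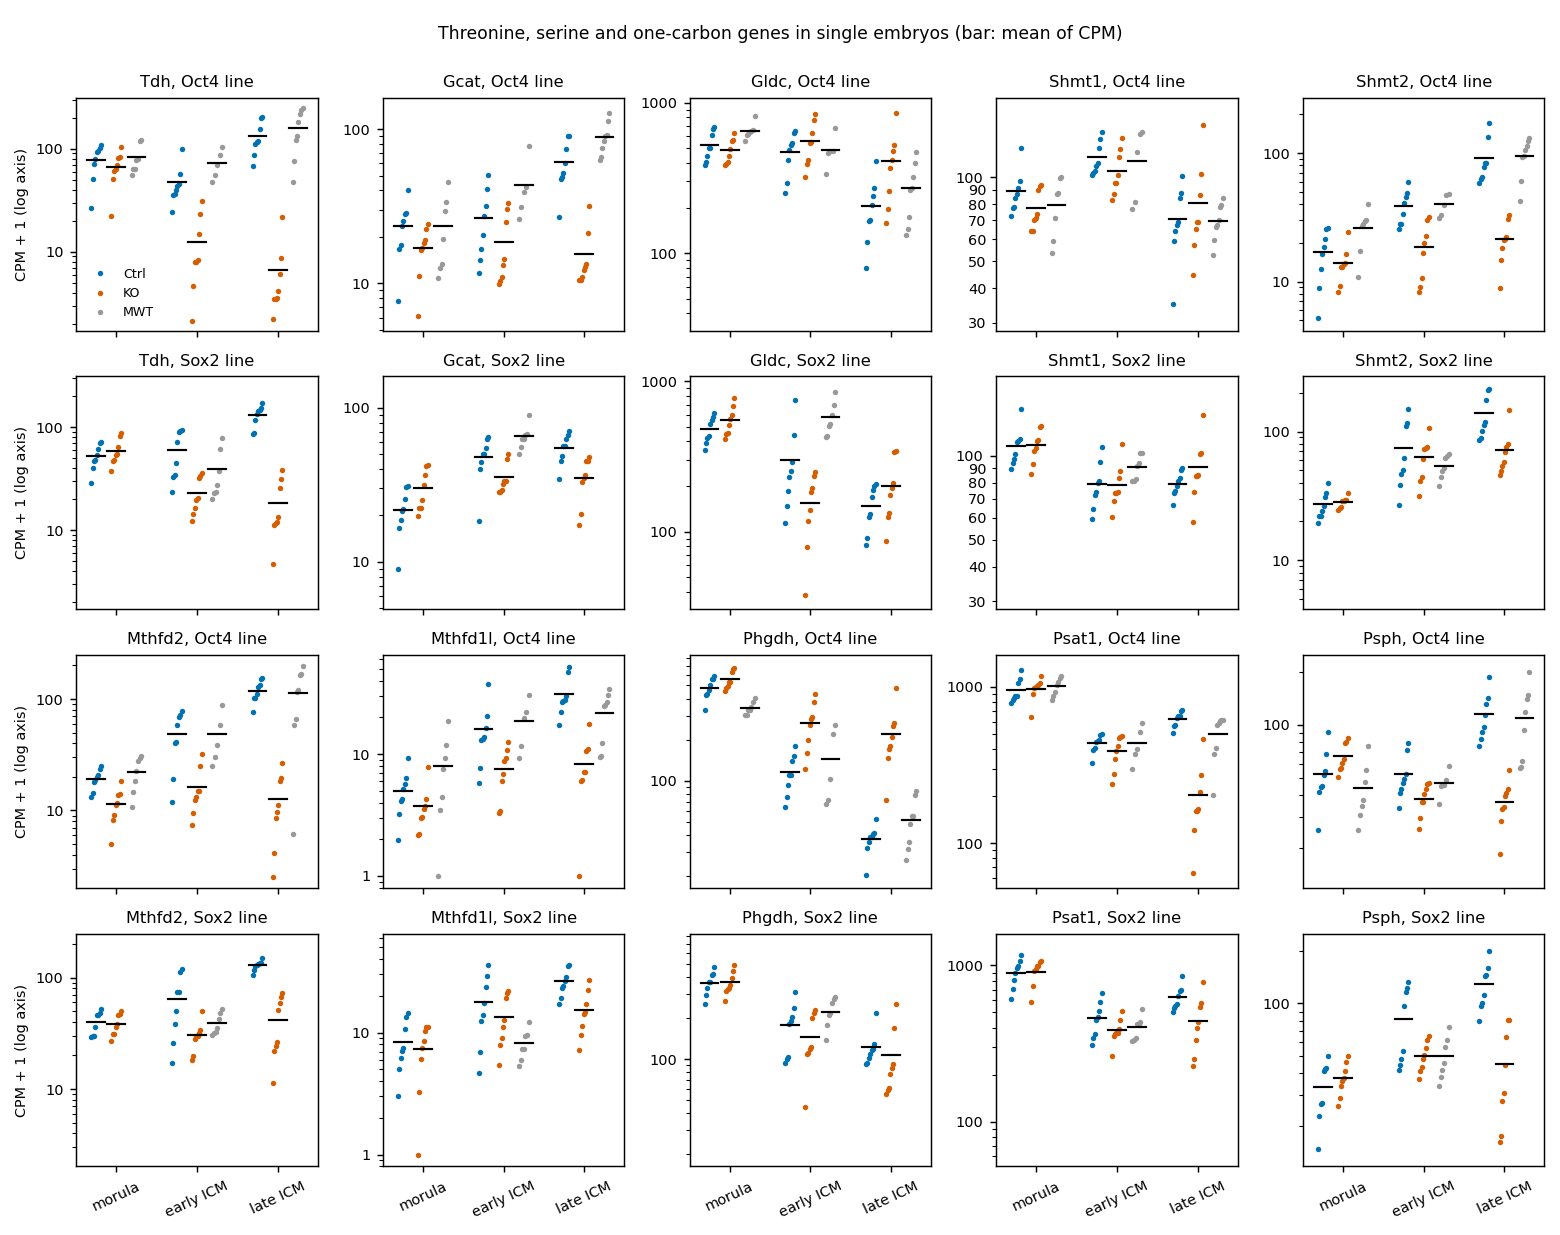
Level of each gene in every embryo, as CPM plus 1 on a log axis, by stage, for the Oct4 line and the Sox2 line in alternating rows, as the panel titles say; points are embryos, bars are group means, and colours mark Ctrl, KO and MWT. Tdh in the 8 Oct4-KO late ICMs lies between 1.23 and 20.6 CPM, below all 8 Ctrl late ICMs, whereas Phgdh lies between 70.6 and 475 CPM, above all of them.

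Tdh, threonine dehydrogenase, catalyses the first step of threonine breakdown (ENSMUSG00000021953, mm10 chr14:63492347-63509092, minus strand). It gave the largest fold change of the 10 genes in all 4 comparisons of ICMs. Tdh ran in Oct4 early ICMs from 23.5 to 97.6 CPM in Ctrl (median 40.6) and from 1.14 to 29.9 CPM in KO (median 7.15). The groups met only at their edges, and each of the 8 KO embryos lay below the Ctrl median. The log2 fold change was -2.0 ± 0.36 (adjusted p = 7.92e-06), and -2.62 (adjusted p = 6.54e-08) against MWT embryos in place of Ctrl. By the late ICM, Oct4 Ctrl embryos ran from 66.5 to 203 CPM (median 117) and KO embryos from 1.23 to 20.6 CPM (median 2.86), a log2 fold change of -4.58 ± 0.40 (adjusted p = 6.67e-17), or 24.0-fold lower. The 8 KO late ICMs held 30 Tdh UMIs between them and the 8 Ctrl late ICMs 722. A single KO embryo, 1-8, had 20.6 CPM, and the next highest had 7.65. Without it the log2 fold change was -5.22 (adjusted p = 1.28e-17), and limma on the rlog values of all embryos gave -3.39.

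Sox2-KO ICMs also had less Tdh. In early ICMs it ran from 22.8 to 92.4 CPM in Ctrl (median 57.8) and from 11.2 to 34.7 CPM in KO (median 19.2), with overlap, at a log2 fold change of -1.44 ± 0.32 (adjusted p = 0.00121). Against MWT embryos in place of Ctrl this was -0.76 (adjusted p = 0.129) and not called. In late ICMs the ranges were apart, 85.1 to 171 CPM in Ctrl (median 137) and 3.67 to 37.4 CPM in KO (median 11.8), at -2.86 ± 0.33 (adjusted p = 5e-11), or 7.28-fold lower. Tdh was not called in morulae of either line, where KO and Ctrl embryos lay between 21.4 and 108 CPM, with log2 fold changes of -0.23 ± 0.29 for Oct4 and 0.19 ± 0.29 for Sox2. The annotation places a lncRNA, Gm17232, on the opposite strand of Tdh. Whether counting used the strand is not stated, so reads of such partners cannot be told apart.

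Gcat, which splits the product of Tdh into glycine and acetyl-CoA, moved less (ENSMUSG00000006378, mm10 chr15:79030874-79038353, plus strand). Gcat ran in Oct4 late ICMs from 25.9 to 89.9 CPM in Ctrl (median 55.2) and from 9.51 to 30.6 CPM in KO (median 11.5), and the log2 fold change was -2.05 ± 0.29 (adjusted p = 1.05e-08). The ranges overlapped through the lowest Ctrl and the highest KO embryo. The difference was -0.55 ± 0.29 in Oct4 early ICMs (adjusted p = 0.177), -0.48 ± 0.26 in Sox2 early ICMs (adjusted p = 0.292) and -0.67 ± 0.26 in Sox2 late ICMs (adjusted p = 0.0699), none of them called. The 8 Sox2-KO late ICMs, at 16.2 to 47.1 CPM, lay below the Ctrl median of 55.3 CPM and overlapped the Ctrl range of 33.4 to 69.55 CPM. How many of all genes did so was not counted.

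Gldc is the decarboxylase of the glycine cleavage system, which passes a carbon of glycine to folate (ENSMUSG00000024827, mm10 chr19:30098447-30175429, minus strand). It was not called in any comparison of KO with Ctrl embryos, and its largest differences from Ctrl in the Oct4 and the Sox2 line had opposite signs. In Oct4 late ICMs it ran from 79.2 to 410 CPM in Ctrl (median 187) and from 158 to 861 CPM in KO (median 391), with broad overlap, at a log2 difference of 0.99 ± 0.28 (adjusted p = 0.00371), just under the fold minimum. In Sox2 early ICMs it ran from 114 to 747 CPM in Ctrl (median 242) and from 37.2 to 247 CPM in KO (median 161), a log2 difference of -0.98 ± 0.28 (adjusted p = 0.0175), again just under the minimum. The first passed the minimum, at 1.00 to 1.01, with no filter, a filter on mean CPM, thinned counts or only the 2 groups fitted, and the second, at -1.06, with scaling by totals alone. When embryos were left out the first passed it, at 1.02 to 1.21, without any one of 7 of the 16 embryos, and the second, at -1.02 to -1.11, without any one of 9. Without Ctrl embryo 2 the second was -0.65 (adjusted p = 0.165).

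Shmt1 and Shmt2 convert serine to glycine and load its carbon on folate, Shmt1 in the cytosol and Shmt2 in mitochondria. The cytosolic form was the steadiest of the 10 genes and the mitochondrial form was not. Over the 16 groups the mean of Shmt1 spanned 1.7-fold, from 68.7 ± 10.6 CPM in Oct4 MWT late ICMs to 117 ± 16.5 CPM in Oct4 Ctrl early ICMs. Its log2 differences between KO and Ctrl ran from -0.20 to 0.21 over the 6 comparisons, and their 95% intervals lay between -0.49 and 0.51. Shmt1 (ENSMUSG00000020534, mm10 chr11:60788104-60811718, minus strand) overlaps Smcr8 on the other strand. Shmt2 (ENSMUSG00000025403, mm10 chr10:127517123-127522444, minus strand, overlapping Ndufa4l2 on the other strand) ran in Oct4 late ICMs from 57.7 to 170 CPM in Ctrl (median 79.9) and from 7.92 to 31.8 CPM in KO (median 20.4). No embryo of one group reached the other, and the log2 fold change was -2.12 ± 0.29 (adjusted p = 4.55e-09). The early ICMs gave ranges of 24.5 to 59.0 CPM (median 36.2) and 7.26 to 30.6 CPM (median 17.3), a fall of -1.10 ± 0.30 (adjusted p = 0.00466). Without Ctrl embryo 9, KO embryo 2 or KO embryo 11 the change was -0.98 to -0.99, just under the fold minimum, with adjusted p of 0.0156 to 0.0175. With all embryos thinned to the lowest total it was -0.91 (adjusted p = 0.0631), and limma on rlog values gave -0.91 (adjusted p = 0.00268). In Sox2 late ICMs Shmt2 ran from 85.5 to 214 CPM in Ctrl (median 114) and from 45.2 to 146 CPM in KO (median 62.6). The difference of -0.94 ± 0.25 (adjusted p = 0.00486) was under the fold minimum, and without KO embryo 2-3, the highest at 146 CPM, or either of Ctrl embryos 1-1 and 1-5 it was -1.01 to -1.18 and passed. With scaling by totals alone it was -1.06 and passed too. The difference in Sox2 early ICMs was -0.25 ± 0.26 (adjusted p = 0.640).

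Mthfd2 and Mthfd1l carry the one-carbon unit on through the mitochondrial folate pathway, Mthfd2 by oxidising it and Mthfd1l by releasing it as formate. Mthfd2 and Tdh were the genes that fell at both ICM stages of both lines. In Oct4 early ICMs it ran from 11 to 76.5 CPM in Ctrl (median 49.1) and from 6.49 to 31.0 CPM in KO (median 13.0), a log2 fold change of -1.63 ± 0.31 (adjusted p = 3.31e-05). The late ICMs gave ranges of 75.0 to 152 CPM (median 118) and 1.53 to 25.9 CPM (median 9.44), far apart, at -3.31 ± 0.33 (adjusted p = 2.06e-14), or 9.90-fold lower.

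Mthfd2 ran in Sox2 early ICMs from 16.1 to 118 CPM in Ctrl (median 60.9) and from 17.4 to 49.5 CPM in KO (median 28.9). The Ctrl embryos were the more scattered, and the fold change of -1.11 ± 0.28 (adjusted p = 0.00648) came to -0.92 and -0.95, under the minimum, without Ctrl embryo 10 or 11. Limma on rlog values gave -0.77 (adjusted p = 0.0559), and MWT embryos as the control -0.39 (adjusted p = 0.458). In Sox2 late ICMs it ran from 104 to 150 CPM in Ctrl (median 130) and from 10.2 to 71.3 CPM in KO (median 37.8), with no overlap, at -1.62 ± 0.27 (adjusted p = 3.54e-06). Mthfd2 (ENSMUSG00000005667, mm10 chr6:83305691-83325908, minus strand) overlaps Gm43890, an unconfirmed transcript on the same strand, so reads from the 2 could be split by the counting.

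Mthfd1l (ENSMUSG00000040675, mm10 chr10:3973118-4167081, plus strand) was the most sparsely counted of the 10, with 1314 UMIs over all embryos. Mthfd1l ran in Oct4 late ICMs from 16.2 to 51.0 CPM in Ctrl (median 26.6) and from 0 to 16.8 CPM in KO (median 6.15), a fall of -2.03 ± 0.38 (adjusted p = 1e-05), with the ranges touching at a single KO embryo. The early ICMs ran from 4.83 to 36.5 CPM in Ctrl (median 12.6) and from 2.29 to 11.5 CPM in KO (median 6.82), at -1.18 ± 0.39 (adjusted p = 0.0196). Without Ctrl embryo 9, at 36.5 CPM, this was -0.86 (adjusted p = 0.124) and no longer called. With all embryos thinned to the lowest total it was -1.02 (adjusted p = 0.123), and limma on rlog values gave -0.70 (adjusted p = 0.0405). It was not called in Sox2 early ICMs (-0.43 ± 0.35, adjusted p = 0.552) or Sox2 late ICMs (-0.79 ± 0.34, adjusted p = 0.113).

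**Figure D2:**
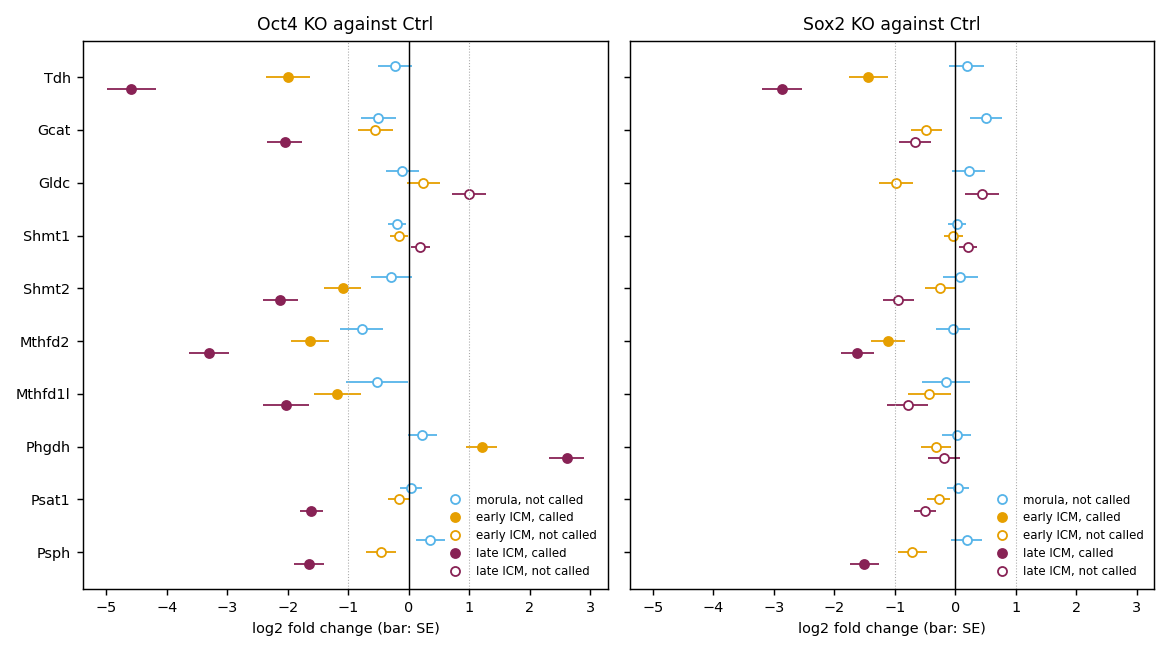
Log2 fold change of KO against Ctrl for each gene at the 3 stages, with 1 SE as the bar, for the Oct4 line (left) and the Sox2 line (right); filled points were called and the dotted lines mark a log2 fold change of 1 in either direction. No morula point is filled, Tdh reaches -4.58 and Phgdh 2.61 in Oct4 late ICMs, and no gene is called higher in the Sox2 line.

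Phgdh, the dehydrogenase that commits a glycolytic intermediate to serine synthesis, went the other way in the Oct4 line (ENSMUSG00000053398, mm10 chr3:98313170-98339990, minus strand). It ran in Oct4 early ICMs from 63.3 to 180 CPM in Ctrl (median 109) and from 122 to 429 CPM in KO (median 268), a rise of 1.2 ± 0.25 (adjusted p = 1.51e-04). Against MWT embryos it was 0.88 (adjusted p = 0.0241), under the fold minimum. By the late ICM it ran from 19.4 to 51.0 CPM in Ctrl (median 37.6) and from 70.6 to 475 CPM in KO (median 192). Every KO embryo was above every Ctrl embryo, and the log2 fold change was 2.61 ± 0.29 (adjusted p = 1.5e-12), or 6.10-fold higher. In Sox2 late ICMs the ranges overlapped widely, 90.8 to 218 CPM in Ctrl (median 112) and 54.3 to 254 CPM in KO (median 80.7), with a difference of -0.19 ± 0.26 (adjusted p = 0.712, 95% interval -0.69 to 0.32). The early ICM difference was -0.32 ± 0.25 (adjusted p = 0.530).

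Psat1 and Psph, the aminotransferase and the phosphatase that complete serine synthesis, fell in Oct4-KO late ICMs while Phgdh rose. Psat1 ran from 507 to 706 CPM in Ctrl (median 640) and from 63.9 to 463 CPM in KO (median 162), without overlap, at -1.61 ± 0.19 (adjusted p = 2.62e-11). In Oct4 early ICMs it differed by -0.16 ± 0.18 (adjusted p = 0.587), in Sox2 early ICMs by -0.28 ± 0.18 (adjusted p = 0.423) and in Sox2 late ICMs by -0.50 ± 0.18 (adjusted p = 0.0543), none of them called. Psph ran in Oct4 late ICMs from 74.4 to 187 CPM in Ctrl (median 104) and from 17.4 to 54.3 CPM in KO (median 35.7), again without overlap, at -1.65 ± 0.25 (adjusted p = 6.73e-08). In Sox2 late ICMs it ran from 78.9 to 198 CPM in Ctrl (median 126) and from 15.4 to 80.1 CPM in KO (median 36.6), at -1.50 ± 0.24 (adjusted p = 1.02e-06), and the ranges met at their edges. In early ICMs the difference of Psph from Ctrl was under the fold minimum in both lines, at -0.46 ± 0.25 (adjusted p = 0.195) for Oct4 and -0.71 ± 0.24 (adjusted p = 0.0487) for Sox2. Against MWT embryos the latter was 0.01 ± 0.26 (adjusted p = 0.987). Psat1 (ENSMUSG00000024640, mm10 chr19:15904678-15947337, minus strand) overlaps the pseudogene Gm3329, and Psph (ENSMUSG00000029446, mm10 chr5:129765558-129787449, minus strand) overlaps Cct6a, each on the opposite strand.

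Whether the KO effects differed between lines or stages was tested directly, as a difference of log2 fold changes called at an adjusted p under 0.05. In early ICMs the Oct4 effect differed from the Sox2 effect for 2 of the 10 genes, against 8.12% of all genes: Gldc by 1.23 ± 0.39 (adjusted p = 0.0345) and Phgdh by 1.52 ± 0.35 (adjusted p = 0.00224). In late ICMs it differed for 6 of the 10, against 8.67%. Phgdh differed most, by 2.79 ± 0.39 (adjusted p = 5.37e-08). Its Ctrl late ICMs also differed between the lines, at 19.4 to 51.0 CPM for Oct4 and 90.8 to 218 CPM for Sox2. The KO late ICMs ran from 70.6 to 475 CPM and from 54.3 to 254 CPM. The effect was more negative in the Oct4 line for Tdh, Gcat, Shmt2, Mthfd2 and Psat1. These differences ran from -1.11 (Psat1) to -1.72 (Tdh), with adjusted p of 0.00233 to 0.0378. Of these genes, Tdh and Mthfd2 were also called lower in Sox2 late ICMs, and Gcat, Shmt2 and Psat1 were not. For Psph, which fell in both lines, the difference was -0.15 ± 0.34 (95% interval -0.82 to 0.53).

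From early to late ICMs the Oct4 effect changed for 6 of the 10 genes, against 4.46% of all genes. It became more negative for Tdh (-2.59 ± 0.58, adjusted p = 0.00295), Mthfd2 (-1.67 ± 0.47, adjusted p = 0.0197), Gcat (-1.50 ± 0.41, adjusted p = 0.0192), Psat1 (-1.45 ± 0.26, adjusted p = 2.37e-04) and Psph (-1.19 ± 0.35, adjusted p = 0.0332), and more positive for Phgdh (1.41 ± 0.38, adjusted p = 0.0154). Both KO and Ctrl levels enter these changes. Mean CPM in early and late Oct4-KO ICMs was 264 and 220 for Phgdh, 37.1 and 35.6 for Psph and 17.4 and 14.4 for Gcat. It was 15.2 and 11.6 for Mthfd2, 11.5 and 5.65 for Tdh and 387 and 202 for Psat1. In Ctrl ICMs it was 115 and 36.3 for Phgdh, 51.2 and 114 for Psph and 25.6 and 60.5 for Gcat. There it was 47.7 and 118 for Mthfd2, 46.6 and 132 for Tdh and 434 and 622 for Psat1. In the Sox2 line the change from early to late was called for 0 of the 10 genes, against 0.0427% of all genes. There 3 of the 10 had an unadjusted p under 0.05, against 10.6% of all genes, and DESeq2 called 1, Gldc (1.41, adjusted p = 0.0494). Several of these differences depended on the processing or on single embryos. Without Oct4-KO late ICM 1-8 the values for Tdh were -2.36 between lines in late ICMs and -3.22 between stages in the Oct4 line, where limma on rlog values gave -1.77. With limma on rlog values the difference between lines was not called for Gldc in early ICMs (adjusted p = 0.0613) or for Tdh (-0.85, adjusted p = 0.172) and Shmt2 (-0.91, adjusted p = 0.0705) in late ICMs. With all embryos thinned to the lowest total it was not called for Shmt2 in late ICMs (adjusted p = 0.0679), nor was the change from early to late in the Oct4 line for Gcat (adjusted p = 0.0514) and Psph (adjusted p = 0.0845). In late ICMs the difference between lines lost its call for Tdh (adjusted p 0.0544 to 0.0881) without Oct4 Ctrl 1-3 or 1-6, Oct4 KO 1-7, 2-2, 2-5, 2-6 or 2-7, or Sox2 KO 1-5, 2-6 or 2-8. For Shmt2 it did so (0.0553 to 0.115) without Oct4 Ctrl 1-9 or 2-9, Oct4 KO 1-5, 1-7 or 1-8, Sox2 Ctrl 1-1, 1-4, 1-5 or 1-10, or Sox2 KO 2-3. In early ICMs it did so for Gldc (0.0525 to 0.155) without Oct4 Ctrl 6 or 9, Oct4 KO 2 or 18, Sox2 Ctrl 2 or 5, or Sox2 KO 8, 10 or 21. Within the Oct4 line Psph lost its call (0.0508 to 0.0727) without Ctrl early ICM 1 or 6, KO early ICM 1 or 2, Ctrl late ICM 2-9, or KO late ICM 1-5 or 1-8, Gcat without KO early ICM 14 (0.0555), Mthfd2 without KO early ICM 10 (0.0703) and Phgdh without KO late ICM 1-8 (0.0508).

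**Figure D3:**
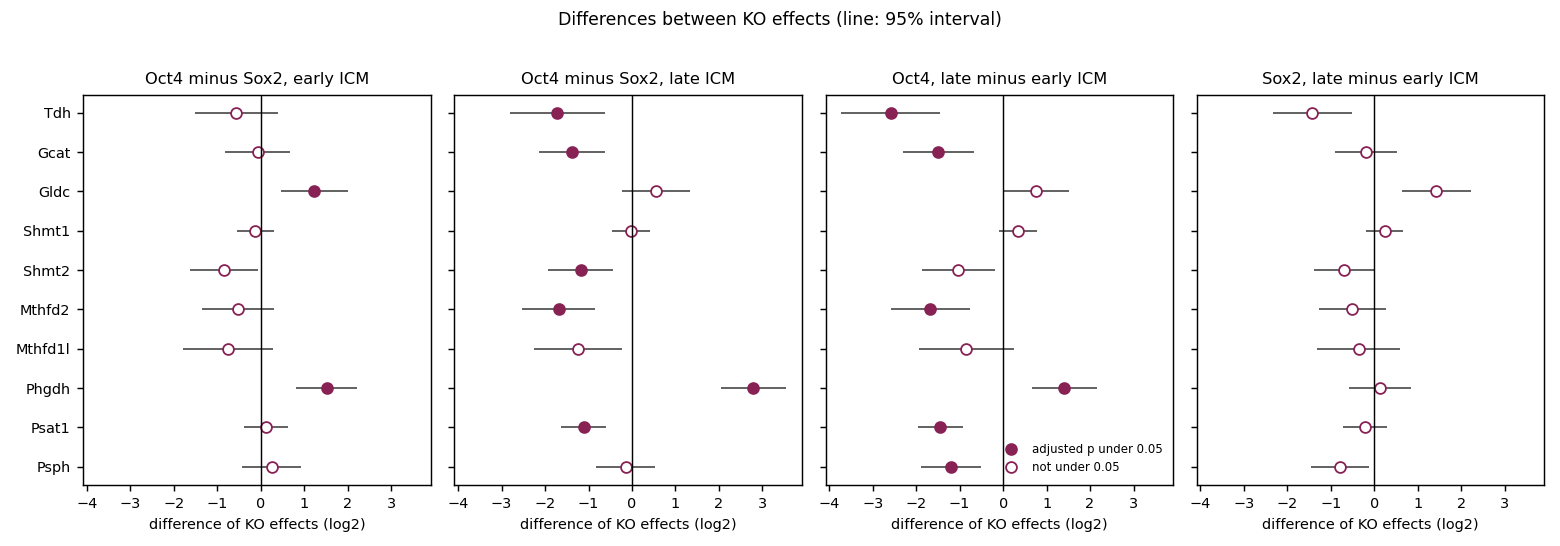
Differences between KO effects on the log2 scale, with 95% intervals, for Oct4 minus Sox2 in early and late ICMs and for late minus early ICMs in each line; filled points had an adjusted p under 0.05. Phgdh stands on the positive side of the first 3 panels, at 1.52, 2.79 and 1.41, and the last panel has no filled point.

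The levels also moved with stage in Ctrl embryos, which serve in the KO comparisons too. In both lines Shmt2 and Mthfd1l rose from morula to early ICM and Phgdh fell. From morula to early ICM 5 of the 10 genes were called in the Oct4 line, against 29.0% of all genes. Shmt2 rose by 1.22 ± 0.30 (adjusted p = 4.45e-04), Mthfd2 by 1.36 ± 0.30 (adjusted p = 9.49e-05) and Mthfd1l by 1.85 ± 0.41 (adjusted p = 8.78e-05), and Phgdh (-2.08 ± 0.26, adjusted p = 3.09e-11) and Psat1 (-1.16 ± 0.18, adjusted p = 1.01e-07) fell. In the Sox2 line 5 were called over the same interval, against 31.9% of all genes. Gcat (1.16 ± 0.26), Shmt2 (1.48 ± 0.27), Mthfd1l (1.13 ± 0.36) and Psph (1.29 ± 0.24) rose, with adjusted p of 2.38e-06 to 0.0063, and Phgdh fell (-1.05 ± 0.25, adjusted p = 1.79e-04). In the Sox2 line the step of Phgdh was -0.96 to -0.99 without morula 16 or early ICM 9, 10 or 15, and that of Mthfd1l 0.91 to 1.00 without early ICM 10 or 15. Psat1 was at -0.98 (adjusted p = 3.72e-06), just under the minimum, and passed it without any one of 5 embryos. Thinned counts gave 1.01 for Mthfd2, which was called then and not in the main fit (0.67, adjusted p = 0.0336), and 0.88 for Mthfd1l (adjusted p = 0.103) and scaling by totals alone -0.98 for Phgdh. Limma on rlog values gave steps under the minimum for Mthfd2 in the Oct4 line (0.96, with Mthfd1l there at 1.06) and for Mthfd1l (0.76) and Gcat (0.996) in the Sox2 line. Phgdh stood at 331 to 590 CPM in Oct4 Ctrl morulae, 63.3 to 180 CPM in early ICMs and 19.4 to 51.0 CPM in late ICMs, with no overlap between successive stages. Such ranges were apart for 16.3% of all genes from morula to early ICM and for 6.38% from early to late ICM.

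From early to late ICM 8 of the 10 genes were called in the Oct4 line, against 15.6% of all genes. Tdh (1.51 ± 0.29), Gcat (1.26 ± 0.27), Shmt2 (1.28 ± 0.27), Mthfd2 (1.31 ± 0.27), Mthfd1l (1.02 ± 0.34) and Psph (1.17 ± 0.24) rose, with adjusted p of 1.74e-05 to 0.0141. Gldc (-1.18 ± 0.28, adjusted p = 5.01e-04) and Phgdh (-1.64 ± 0.29, adjusted p = 2.44e-06) fell. Mthfd1l was at 0.87 to 0.99, under the fold minimum, without early ICM 1, 2, 3, 6 or 7 or late ICM 1-9 or 2-4, and at 0.90 to 0.98 under 5 processing alternatives (other filters, scaling by totals alone, limma on rlog values and thinning, the last with an adjusted p of 0.0829). In the Sox2 line 3 were called, against 2.90% of all genes. Tdh (1.10 ± 0.28, adjusted p = 0.0075) and Mthfd2 (1.02 ± 0.26, adjusted p = 0.00737) rose and Gldc fell (-1.04 ± 0.28, adjusted p = 0.012). All 3 lay close to the fold minimum. Tdh went under it without early ICM 7 (0.98), Mthfd2 without early ICM 2, 4, 5 or 7 or late ICM 1-10 (0.87 to 0.98), and Gldc without early ICM 2 or 5 or late ICM 1-10 or 2-6 (-0.70 to -0.96). Thinning also took Mthfd2 under it (0.91), and Gldc went under it with RLE scaling (-0.995), DESeq2 (-0.993), limma on rlog values (-0.76) and thinning (-0.998).

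Ctrl embryos lack the maternal protein, so they were also set against MWT embryos, whose mothers had the gene intact. None of the 10 genes was called in these 4 comparisons. The counts of 0 stood beside 0.0646% of all genes called in Oct4 morulae, 0.373% in Oct4 early ICMs, 0.797% in Oct4 late ICMs and 2.58% in Sox2 early ICMs. An unadjusted p under 0.05 was reached by 1, 1, 1 and 5 of the 10, against 7.22%, 9.52%, 13.9% and 20.5% of all genes. DESeq2 called 1 of the 10, Mthfd1l, lower in MWT than in Ctrl Sox2 early ICMs (-1.23, adjusted p = 0.0353), where edgeR gave -1.19 ± 0.41 (adjusted p = 0.0581). In the same comparison Gldc was higher in MWT by 0.93 ± 0.27 (adjusted p = 0.0225), under the fold minimum. In the 5 Oct4 MWT early ICMs Tdh stood at 46.0, 55.1, 68.2, 85.0 and 102 CPM, within or above the Ctrl range of 23.5 to 97.6 CPM and above all 8 KO embryos. Among the 8 Oct4 MWT late ICMs, embryo 20 had 5.15 CPM of Mthfd2 and 203 CPM of Psat1, the lowest of its group for both.

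With MWT in place of Ctrl embryos, a comparison added after the data were seen and fitted over all 16 groups, 0 of the 10 genes were called in Oct4 morulae, against 2.13% of all genes. An unadjusted p under 0.05 was reached by 5 of the 10 there, against 16.6% of all genes: Shmt2 (-0.96), Mthfd2 (-1.01), Mthfd1l (-1.37), Phgdh (0.70) and Psph (0.62), with adjusted p of 0.0725 to 0.176. For Phgdh the ranges were apart, 456 to 668 CPM in KO and 303 to 403 CPM in MWT morulae. Oct4 Ctrl morulae ran from 331 to 590 CPM and overlapped both. The share of all genes with ranges apart was not counted for this comparison. In Oct4 late ICMs 8 of the 10 genes were again called, the same 8 as against Ctrl, where 20% of all genes (2791 of 13923) were. In Oct4 early ICMs 5 were called, with Gcat (-1.28) in the place of Phgdh, whose difference was 0.88 (adjusted p = 0.0241) and under the fold minimum, against 9.57% of all genes. Gldc (-1.90) was the 1 gene called in Sox2 early ICMs, while Tdh (-0.76, adjusted p = 0.129) and Mthfd2 (-0.39, adjusted p = 0.458) were not. A count of 1 in 10 there was close to the 7.69% called among all genes. The calls of Tdh and Mthfd2 in Sox2 early ICMs thus held against Ctrl embryos and not against MWT embryos. The summed level of 8 primitive endoderm markers was 861 to 1270 CPM in the Sox2 MWT early ICMs, above all Ctrl (87.1 to 702 CPM) and KO (361 to 816 CPM) early ICMs of that line. Foxa2 was at 0 in every embryo of the 3 groups, and the part of these markers in the MWT values was not tested.

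Genes around the pathway were described from 6 lists, which held 57 genes, 51 of them tested. In morulae 0 of the 51 were called in either line, against 0.804% of all genes in the Oct4 line and 0.00712% in the Sox2 line. In Oct4 late ICMs 15 of the 51 were called, 12 of them lower, against 18.1% of all genes, and 8 of those 12 were in 2 lists. Of 6 transporters of serine, glycine and threonine, 4 fell (median log2 fold change of the list -1.90), among them Slc1a4 (-3.99 ± 0.57, adjusted p = 1.5e-08), which carries serine, Slc1a5 (-2.35 ± 0.42, adjusted p = 2.98e-06) and Slc38a2 (-1.44 ± 0.46, adjusted p = 0.00986), carriers of neutral amino acids. Of 7 genes in the list of the stress regulator Atf4 and its known targets, 4 fell (median -1.78), including Asns, asparagine synthetase (434 ± 117 CPM in Ctrl and 46.5 ± 30.8 CPM in KO, n = 8 each), at -3.22 ± 0.43 (adjusted p = 1.95e-09), and Trib3 (-2.34 ± 0.49, adjusted p = 6.69e-05). Atf4 itself was not called (-0.20 ± 0.14, adjusted p = 0.287).

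The other lists were mixed in Oct4 late ICMs, and the counts called in them lay close to the 18.1% called among all genes. In the folate list 2 of 14 rose, Folr1, a folate receptor (1.79 ± 0.23, adjusted p = 5.32e-10), and Slc46a1, a folate transporter (1.52 ± 0.19, adjusted p = 3.26e-10). Fpgs, which adds the glutamate tail that keeps folate in the cell, fell (-1.50 ± 0.19, adjusted p = 3.97e-10). In the methionine list 2 of 12 fell, Ahcy (-2.06 ± 0.24, adjusted p = 1.14e-11), which clears S-adenosylhomocysteine, and Cth (-1.12 ± 0.27, adjusted p = 5.23e-04), which makes cysteine. Of 4 further genes of glycine cleavage and serine breakdown, Amt fell (-1.02 ± 0.18, adjusted p = 3.48e-06), and of 8 purine synthesis genes, Impdh1 rose (1.34 ± 0.21, adjusted p = 1.03e-07). The medians of these 4 lists lay between -0.18 and 0.43. In Oct4 early ICMs 7 of the 51 were called, 5 lower and 2 higher, against 10.9% of all genes. Ahcy was down already (-2.11 ± 0.25, adjusted p = 9.58e-11), and Slc46a1 (1.47 ± 0.19, adjusted p = 2.8e-09) and Ddit3 (1.12 ± 0.36, adjusted p = 0.0165) rose.

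In Sox2 late ICMs 7 of the 51 were called, 6 of them lower, against 6.95% of all genes. The list of Atf4 and its targets gave 3 of 7 lower (median -0.84), among them Trib3 (-2.35 ± 0.43, adjusted p = 2.55e-05) and Asns (-1.93 ± 0.40, adjusted p = 1.84e-04), and the transporters 2 of 6 (median -0.96), Slc1a4 (-2.33 ± 0.46, adjusted p = 7.47e-05) and Slc1a5 (-1.60 ± 0.36, adjusted p = 6.57e-04). Cth (-1.38 ± 0.26, adjusted p = 3.53e-05) also fell, and Bhmt, which remethylates homocysteine, rose from 159 ± 96.5 to 534 ± 285 CPM (1.76 ± 0.30, adjusted p = 6.02e-06). In Sox2 early ICMs 3 of the 51 were called, all lower, Asns among them (-1.29 ± 0.42, adjusted p = 0.0409), against 3.27% of all genes.

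**Figure D4:**
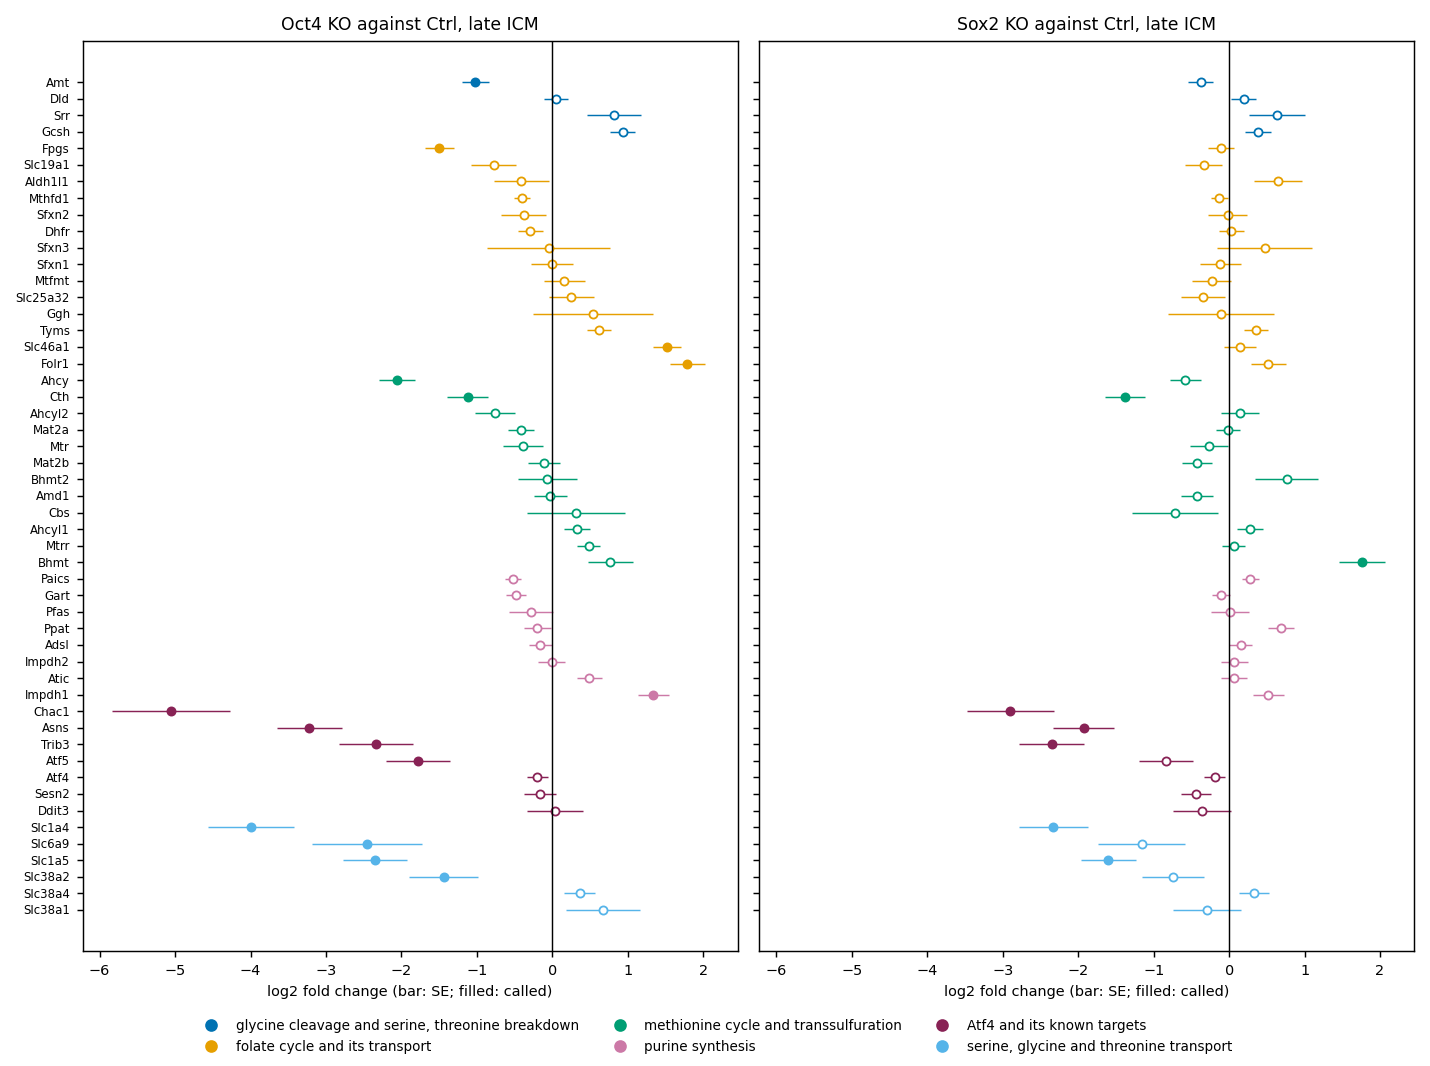
Log2 fold change of KO against Ctrl in late ICMs, with 1 SE as the bar, for the 51 tested genes of the 6 surrounding lists, coloured by list, in the Oct4 line (left) and the Sox2 line (right); filled points were called. The transporters and the genes listed with Atf4 hold 8 of the 12 genes called lower in the Oct4 line and 5 of the 6 in the Sox2 line.

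Markers of cell types moved in the same comparisons. The summed level of 10 trophectoderm markers ran in Oct4 late ICMs from 282 to 1020 CPM in Ctrl and from 1490 to 3450 CPM in KO, with 8 of the 10 called higher, while the sum of 8 epiblast and ICM markers, the targeted genes among them, ran from 2130 to 3450 CPM in Ctrl and from 360 to 1030 CPM in KO, with 8 of 8 called lower. In Sox2 late ICMs 3 trophectoderm markers were called higher, with sums of 259 to 2850 CPM in Ctrl and 691 to 1870 CPM in KO, and 5 epiblast markers lower, with sums of 2240 to 3710 CPM in Ctrl and 1260 to 2050 CPM in KO. In early ICMs the trophectoderm sums were 427 to 1380 CPM in Oct4 Ctrl and 884 to 1560 CPM in Oct4 KO, and 187 to 637 CPM in Sox2 Ctrl and 565 to 2240 CPM in Sox2 KO. Of the 10 markers, 3 were called higher and 1 lower in Oct4-KO early ICMs, and 4 higher and 1 lower in Sox2-KO early ICMs. Of the 8 epiblast and ICM markers, 6 were already called lower in Oct4-KO early ICMs (median log2 fold change -2.15), with sums of 1380 to 2200 CPM in Ctrl and 971 to 1590 CPM in KO. In Sox2-KO early ICMs 5 were called lower (median -1.57), with sums of 1280 to 3060 CPM in Ctrl and 1060 to 1480 CPM in KO. Of 8 primitive endoderm markers, 6 were tested and 4 were called lower and 2 higher in Oct4-KO late ICMs, and the summed level was 209 to 1200 CPM in Ctrl and 800 to 1490 CPM in KO. Against MWT late ICMs in place of Ctrl, 3 of the 6 were called higher and 0 lower, where 20% of all genes were called. MWT late ICMs had sums of 62.6 to 373 CPM. In them 3 of the 6 were called lower than in Ctrl, where 0.797% of all genes were called. In Oct4 early ICMs 1 was called higher and 2 lower, with sums of 475 to 741 CPM in Ctrl and 611 to 1040 CPM in KO, and in Sox2 early ICMs 1 was called higher, with sums of 87.1 to 702 CPM in Ctrl and 361 to 816 CPM in KO. One was called lower in Sox2 late ICMs, with sums of 255 to 1470 CPM in Ctrl and 489 to 870 CPM in KO. None of these markers was at 0 in every embryo of the late ICM groups of Ctrl and KO embryos. No epiblast or ICM marker was at 0 in every embryo of any ICM group, KO included. The part of any of these cell types in the changes of the 10 genes was not tested. Among Sox2 Ctrl late ICMs, embryos 1-10 and 2-6 had the highest trophectoderm sums, 2850 and 1900 CPM, against 259 to 981 CPM in the other 6.

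Over the 16 groups the mean level of a gene spanned from 1.7-fold (Shmt1) to 27.8-fold (Tdh), with Phgdh at 15.3-fold, Mthfd2 at 12.2-fold, Mthfd1l at 11.1-fold and Shmt2 at 10.6-fold. In the order of group means, neighbouring groups lay within their SDs for each of the 10 genes. Tdh was highest in the late ICMs with an intact allele (157 ± 75.2 CPM in Oct4 MWT, 132 ± 49.8 CPM in Oct4 Ctrl and 129 ± 30.7 CPM in Sox2 Ctrl) and lowest in Oct4-KO late ICMs (5.65 ± 6.36 CPM). Phgdh was highest in Oct4-KO morulae (554 ± 83.6 CPM) and lowest in Oct4 Ctrl late ICMs (36.3 ± 8.97 CPM). Across the 16 group means of log2(CPM + 1), which share libraries and controls and are given as a description, Shmt2 went with Mthfd1l (Pearson r = 0.90), Mthfd2 (0.89) and Gcat (0.88), and Phgdh went against Mthfd1l (-0.92) and Shmt2 (-0.81). Tdh went most closely with Psat1 (0.69).

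**Figure D5:**
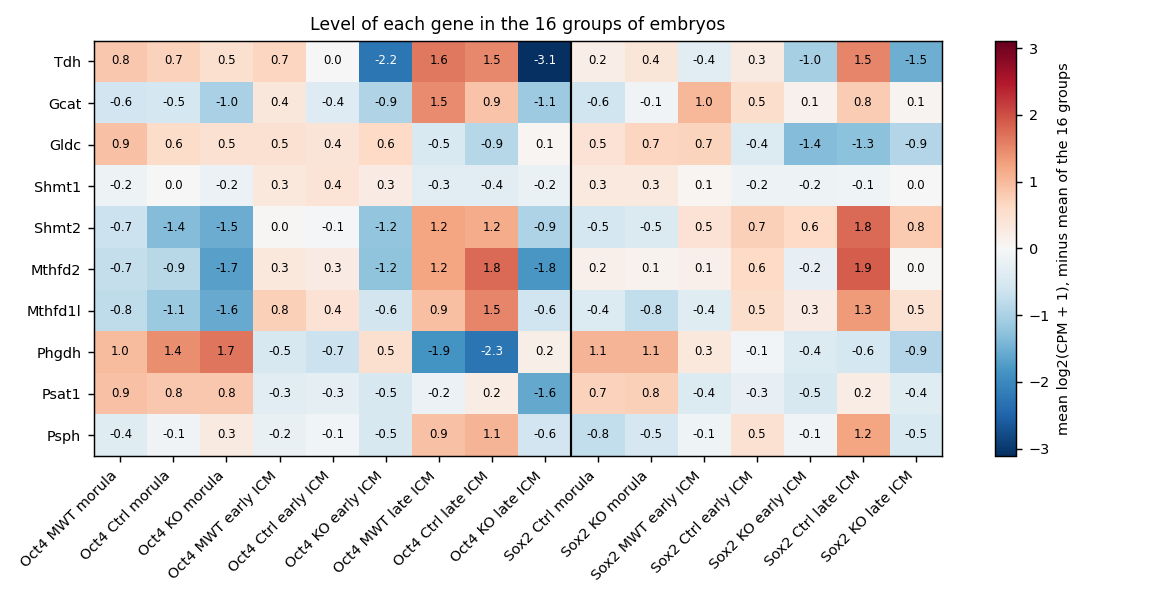
Mean log2(CPM + 1) of each gene in the 16 groups, minus the mean of the gene over the 16 groups, with the Oct4 line to the left of the black line and the Sox2 line to its right. Shmt2, Mthfd2 and Mthfd1l are above their means in the late ICMs of Ctrl and Oct4 MWT embryos and below them in Oct4-KO late ICMs, Phgdh is lowest in Oct4 Ctrl late ICMs, and Shmt1 stays close to 0.

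Among 7932 genes with at least 20 CPM in some group, those whose pattern over the 16 group means was most like that of a member are given here by Pearson r, again as a description. Tdh was closest to Hdac1 (0.959), a histone deacetylase, followed by Aurkc (0.922) and Fbrsl1 (0.921). Shmt2 was closest to Pck2 (0.969), the mitochondrial phosphoenolpyruvate carboxykinase, and Mthfd2 to Gdf3 (0.942), a growth factor of the epiblast that is one of the markers above. Phgdh was closest to Ppp1r14b (0.965), Psat1 to Cth (0.941), Mthfd1l to Ddr2 (0.951) and Psph to Mal (0.908). Gcat was closest to Zfp428 (0.941), Gldc to Tlcd1 (0.943) and Shmt1 to Aimp1 (0.946). By Spearman's rho the closest gene was another for each member except Phgdh, for example Fbrsl1 (0.926) for Tdh, Shf (0.974) for Shmt2 and Ubqln4 (0.974) for Mthfd2.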

How the data were processed

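According to the methods of the study, the authors extracted UMIs from 3′-enriched single-embryo reads with UMI-tools, trimmed the reads with Cutadapt, aligned them to mm10 with TopHat2, counted genes of GENCODE vM23 with featureCounts and corrected UMI numbers with TRUmiCount. The deposited table holds whole-number counts of UMIs for 29022 genes, 1124 of which have none. A second deposited table, used as an alternative, holds rlog values on a log2 scale, made by the authors with DESeq2 for 15747 genes. Tool versions are not given in the sources used here.

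Groups came from the sample labels. A gene was tested if it had a UMI in 0.5 or more of the embryos of any stage. Counts were TMM-scaled and fitted by group in R 4.3.3 with edgeR's estimateDisp, glmQLFit and glmQLFTest (version 4.0.16), over 96 Ctrl and KO embryos in 12 groups (14053 genes) or, for MWT comparisons, over all embryos in 16 groups (13923 genes). Unless another tool is named beside it, an adjusted p is from edgeR, with Benjamini-Hochberg adjustment over all genes tested. DESeq2 1.42.0 and limma 3.58.1 gave alternatives. The script was tested on simulated data. No pair of libraries within a group held near-equal counts (416 pairs, lowest chi-square per gene 2.41, median 4.76). All 10 genes lie at the same position in GENCODE vM21. Overlapping genes were listed from the gene positions deposited with the counts. The members, gene lists, motifs and tests were chosen with earlier results of these data known. All 10 genes are named throughout. From each list, up to 3 called genes with the largest fold change were named, if their higher group averaged 20 CPM or more, per KO comparison. Atf4 was named after its values were seen. Which embryos were littermates is not given, and p-values measure the spread between embryos. One gene of the lists is not reported here and was left out of the list counts.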

Additional observations from a re-analysis of the deposited data

Results flagged for a closer look

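Among 160 sets of embryos, 1 for each gene and group, 9 held an embryo that stood apart from the rest of its group, and chance flags about 1 set in 20. The ratio given is the gap to the nearest embryo over the whole range of the group.

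Oct4 Ctrl early ICM 9 had 97.6 CPM of Tdh, with the next at 55.8 (ratio 0.565), and 36.5 CPM of Mthfd1l, with the next at 19.7 (0.530). Oct4-KO late ICM 1-8 had 20.6 CPM of Tdh, with the next at 7.65 (0.669). Sox2-KO late ICM 2-3 had 146 CPM of Shmt2, with the next at 78.4 (0.671), and Sox2 Ctrl late ICM 2-3 had 218 CPM of Phgdh, with the next at 129 (0.701). Among morulae, Oct4 MWT embryo 10 had 814 CPM of Gldc, with the next at 660 (0.602). Oct4 Ctrl embryo 16 had 126 CPM of Shmt1, with the next at 96.2 (0.548), and Sox2 Ctrl embryo 16 had 146 CPM of it, with the next at 114 (0.561). Oct4-KO embryo 5 had 6.9 CPM of Mthfd1l, with the next at 3.3 (0.628).

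Effects of KO differed between lines or stages for 14 pairs of a gene and a contrast. The Oct4 effect minus the Sox2 effect was 1.23 for Gldc and 1.52 for Phgdh in early ICMs. In late ICMs it was -1.72 for Tdh, -1.38 for Gcat, -1.18 for Shmt2, -1.69 for Mthfd2, 2.79 for Phgdh and -1.11 for Psat1. The Oct4 effect in late ICMs minus that in early ICMs was -2.59 for Tdh, -1.50 for Gcat, -1.67 for Mthfd2, 1.41 for Phgdh, -1.45 for Psat1 and -1.19 for Psph.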

How the results depend on the processing

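No called change of the 10 genes turned its sign under any alternative run. Apart from leaving out embryos, 166 of 182 counts of called genes stayed within 1.5 times the main count, and 16 did not. The count in Oct4 early ICMs, 5 in the main fit, was 3 with limma on the rlog values and 3 with all embryos thinned to the lowest total (1164 of all genes called, 1529 in the main fit). In Sox2 early ICMs, 2 became 1 with limma on rlog values, 4 with no fold minimum and 1 with MWT embryos as the control, chosen after seeing the data. From morula to early ICM in the Sox2 line, 5 became 3 with limma on rlog values and 9 with no fold minimum, and from early to late ICM 3 became 1 with thinned counts (all genes 407 to 235). The difference between lines in early ICMs went from 2 to 1 with limma on rlog values (all genes 1141 to 1163), and the change of the Sox2 effect with stage from 0 to 1 with DESeq2. MWT against Ctrl in Sox2 early ICMs went from 0 to 1 with a filter on mean CPM, DESeq2, limma on rlog values or no fold minimum. The causes were not tested. Over all genes, limma on rlog values called 608 in Oct4 early ICMs (1529 in the main fit), 1244 in Oct4 late (2544), 208 in Sox2 early (459) and 446 in Sox2 late ICMs (977), and no fold minimum gave 2950, 4450, 989 and 1935. With totals alone as the scaling, 379 of 1007 genes called in Sox2 late ICMs were higher in KO (469 of 977 in the main fit), 55 of 120 were higher in MWT in Oct4 late ICMs (38 of 111), and 5 of 7 changes of the Sox2 effect with stage were higher (5 of 6).

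Wherever an embryo was left out, the scaling and the trended dispersions of the fit with all embryos were kept. Leaving out 1 embryo at a time gave 3 to 5 called genes in Oct4 early ICMs, 8 to 9 in Oct4 late ICMs, 2 to 3 in Sox2 early ICMs, 3 to 4 in Sox2 late ICMs and 0 to 0 in morulae. The steps gave 5 to 5 and 7 to 8 in the Oct4 line and 3 to 6 and 1 to 4 in the Sox2 line. Differences between lines gave 1 to 2 in early and 4 to 6 in late ICMs, and between stages 4 to 6 for Oct4 and 0 to 0 for Sox2. MWT comparisons gave 0 to 2 in Sox2 early ICMs and 0 to 0 elsewhere.

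Embryo numbers shared by Ctrl and KO were not treated as pairs in the main fit. Correlations ran from -0.08 to 0.23, and 2 to 4 pairs a comparison are too few to decide whether these embryos were paired. The 4 pairs of Sox2 late ICMs gave -0.03, 0.10, 0.18 and 0.23, and 3 of the 4 KO embryos correlated best with the Ctrl embryo of their own number, a hint from the data and not from the design. With a replicate block over these embryos, 0 genes were called in Oct4 morulae, 2 in Oct4 early ICMs, 3 in Sox2 early ICMs and 3 in Sox2 late ICMs, and the same embryos without the block gave 0, 1, 3 and 2. Over all genes the block gave 131, 452, 373 and 519 calls in these comparisons, and the same embryos without it 53, 266, 216 and 402. Gldc in Sox2 early ICMs was called in these embryos, at -1.16 with the block and -1.30 without it. In Oct4 early ICMs Mthfd2 was not called in them, at -0.92 (adjusted p = 0.472) with the block and -1.01 (adjusted p = 0.523) without it. Shmt2 and Mthfd1l were not called there either. Tdh was called there, at -2.96 (adjusted p = 2.34e-04) with the block and -2.945 (adjusted p = 0.0159) without it. Phgdh lost its call there without the block (1.38, adjusted p = 0.161). Depth limits the genes with few UMIs, such as Mthfd1l with 21 in the 8 Oct4-KO morulae and Tdh with 30 in the 8 Oct4-KO late ICMs.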
